A study of Ovis aries with 16 samples.

Results

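Replacing the fetal urine that had been drained was compared with draining it alone, in 8 of the 16 amnion libraries of the series. The 4 libraries labelled UDR came from fetuses whose urine was drained through a bladder catheter while the same volume of a balanced salt solution, lactated Ringer's, was returned. The 4 labelled UD came from fetuses whose urine was drained with nothing given back. The libraries were chosen by their treatment label, so both groups shared the loss of urine and differed in whether fluid was given back. The series also held 4 controls (C) and 4 fetuses whose amniotic sac received 2 liters of that solution per day (IA), which serve here only as reference levels. All 16 were pregnant sheep with singleton fetuses, with catheters in the maternal and fetal vessels, the fetal bladder and the amniotic sac. Gestational age was 121 ± 0.5 days (SE; term is 145 to 150 days), and each protocol lasted 2 days. Each library was made from the polyadenylated RNA of 1 animal's amnion.

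The amnion is the avascular membrane that lines the amniotic sac: an epithelium facing the fluid, on a layer of connective tissue. Fetal urine is the main inflow of amniotic fluid late in gestation, and swallowing and passage across the amnion into fetal blood, the intramembranous route, are its main outflows. Much of that passage is thought to run through vesicles that cross the epithelial cells. Draining urine removes both fluid volume and whatever the urine carries, and returning a salt solution restores the volume without the urine's own solutes. Urine was lost in both UDR and UD, so they differ in the fluid given back, its volume together with its salts and lactate.

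The deposited table gives read counts for 25197 Ensembl sheep gene IDs and no names. Of these IDs, 0 matched the reference gene table, so genes are described by count, level and direction, and only 4 are given by ID. For the same reason, neither the defining genes of amnion epithelium nor those of trophoblast, blood or muscle could be looked up, and the labelled tissue was not checked. The UD libraries held 14748310 to 18553674 counts and the UDR libraries 12245460 to 30767263. UDR 2 and UDR 3 had the highest totals, being the only libraries sequenced in 2 runs, which were summed. A total of 13569 genes had a CPM (counts per 1000000 counts of the library) of 1 or more in at least 4 of the 16 libraries, and these were tested. In 701 of them under 4 of the 8 UD and UDR libraries reached 1 CPM, and 0 genes were kept through the UDR group or the UD group alone. UD 1 and UD 2 were sequenced in lane 1 and the other 6 libraries in lane 2, with second runs of UDR 2 and UDR 3 in lane 3. UD 1 and UDR 3 lay farthest from the rest over all genes, and UD 4 lay close to UD 1, so gene counts are given with and without these libraries.

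No gene of the amnion passed the test between drainage with and without replacement, yet the differences short of the threshold leaned toward lower levels in UDR. edgeR called 0 of 13569 genes at an adjusted p under 0.05 (0% of those tested), and the smallest adjusted p was 0.4996. In 1206 genes, 8.89% of those tested, the unadjusted p was under 0.05, where 678.45 would be expected with no difference. Of these, 857 were lower in UDR (6.32% of all tested) and 349 higher (2.57%). DESeq2 called 144 of 13446 genes (1.07%), 137 of them lower in UDR. Limma-voom with sample quality weights called 1633 (12%), of which 792 were lower and 841 higher. In bulk tissue, fewer cells of a type and less RNA per cell cannot be told apart, which applies to every level given here.

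The typical gene differed little between the groups, and the lower side of the distribution was the longer. The median log2 fold change of UDR against UD was 0.05, and the middle of the distribution, from the 25th to the 75th percentile, ran from -0.36 to 0.35. The 5th percentile was at -1.80 and the 95th at 0.86. The fit placed 559 genes at least 4-fold lower in UDR and 137 at least 4-fold higher. At 2-fold the numbers were 1431 lower (10.5% of genes) and 498 higher (3.67%). In the plot of each gene's fitted difference against its mean level, the lower genes extend over the whole range of abundance.

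**Figure D1:**
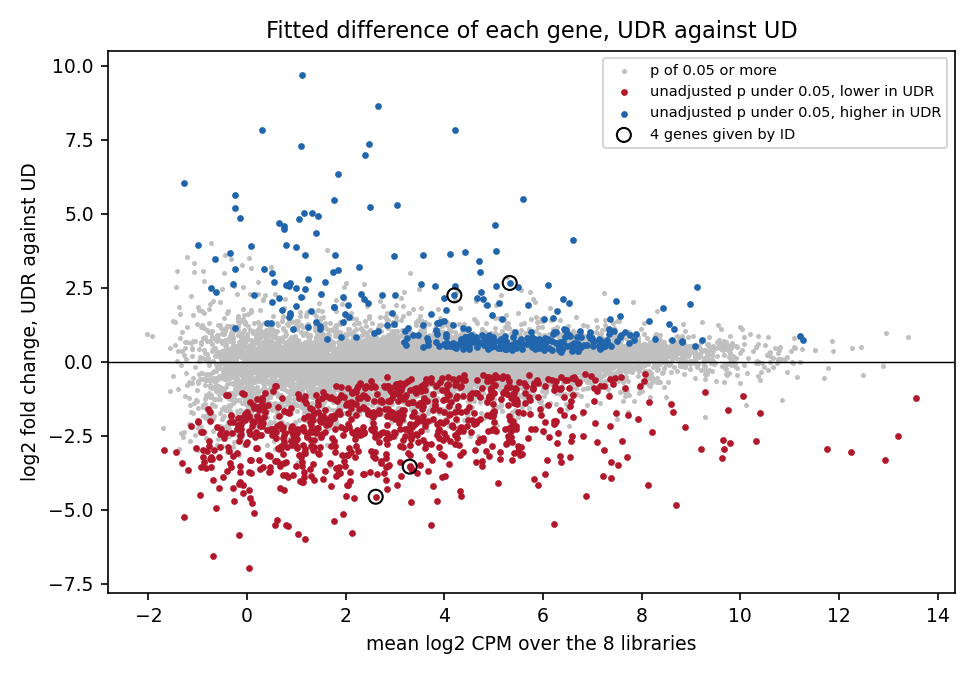
Each point is 1 of 13569 genes, with its mean log2 CPM over the 8 UD and UDR libraries on the horizontal axis and its log2 fold change of UDR against UD on the vertical axis. Red and blue mark the 857 lower and 349 higher genes with an unadjusted p under 0.05, and circles mark the 4 genes given by ID.

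Amnion of UD animals was about as different from that of other UD animals as from that of UDR animals. The root mean square (RMS) difference of log2 CPM over all genes tested, a measure of distance between 2 libraries, averaged 1.34 over the 16 pairs of a UD with a UDR library. It averaged 1.25 over the 6 pairs within UD and 1.37 over the 6 within UDR. The closest pair of all joined the groups: UD 3 and UDR 1 were 0.67 apart. UD 2 and UDR 2 were 0.89 apart, and UD 3 and UDR 4 were 0.80 apart.

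In 6 of the 8 libraries the nearest library belonged to the other group. The exceptions were UD 1 and UD 4, each nearest to the other at 0.75. UDR 3 had no close neighbour: its nearest library, UD 2, was 1.35 away. The median distance to the other 7 libraries was 1.58 for UDR 3 and 1.51 for UD 1, against 1.25 to 1.33 for the remaining 6. The group accounted for 17.9% of the variance of log2 CPM among the 8 libraries, where 14.3% is the mean over all regroupings (exact permutation test, one-sided, p = 0.286, smallest possible 0.0286). It was 12.5% without UD 1 (exact permutation p = 0.771, mean over regroupings 16.7%) and 8.86% without both UD 1 and UD 4 (exact permutation p = 1, smallest possible 0.0667, mean 20%). Among the lane 2 libraries alone it was 19.4%, again beside a mean of 20% (exact permutation p = 0.467, smallest possible 0.0667). Lane 1 held UD libraries and no UDR library, so it gives no value of its own.

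**Figure D2:**
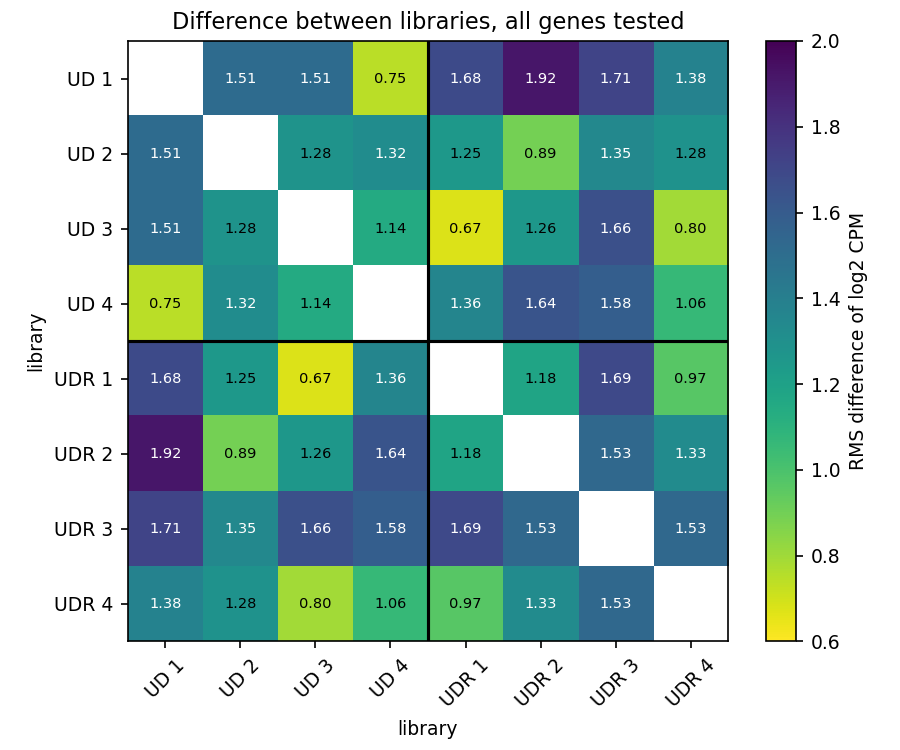
Each cell gives the RMS difference of log2 CPM between 2 libraries over 13569 genes, with black lines dividing UD from UDR. The lowest values outside the pair of UD 1 and UD 4 (0.75) lie across the groups, such as 0.67 for UD 3 with UDR 1.

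The 857 genes lower in UDR were genes high in UD 1 and UD 4. On average over these genes, log2 CPM relative to the mean of C was 2.48 in UD 1 and 1.81 in UD 4, against 0.27 in UD 2 and 0.12 in UD 3. In the UDR libraries it was -0.49, -1.05, -0.78 and -0.28 in UDR 1 to UDR 4. All UDR libraries thus lay below all UD libraries in this average, as the choice of the genes favours, and UD 2 and UD 3 lay nearer to UDR 4 than to UD 1. The control libraries ranged from -0.46 to 0.28. The IA libraries did not enter the difference by which the genes were chosen. They did enter the gene filter, the scaling and the spread estimate shared by all groups. With only the 8 UD and UDR libraries in the fit, 650 of the 857 had an unadjusted p under 0.05 by edgeR. IA 1 to IA 4 were at -0.27, 2.19, -0.03 and 0.81, so IA 2 lay between UD 4 and UD 1.

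UD 1 was the highest UD library in 693 of the 857 genes (80.9%), against 31.7% of all genes tested. UD 4 was the highest in 129, UD 2 in 29 and UD 3 in 6. In 748 of the 857 (87.3%) UD 1 and UD 4 were the 2 highest UD libraries, against 32.1% of all genes tested. The spread between animals was larger in UD for these genes: the median SD of log2 CPM over these genes was 1.24 in UD and 0.76 in UDR, where over all genes tested it was 0.55 and 0.58. Among the 559 genes fitted at least 4-fold lower, UD 1 or UD 4 was the highest UD library in 552. Over all genes tested UD 1 was the highest in 31.7% and UD 4 in 13.2%. A choice by a high UD mean favours genes led by outlying UD libraries.

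Within UDR the lowest library varied more from gene to gene. UDR 2 was the lowest UDR library in 347 of the 857 genes, UDR 3 in 289, UDR 1 in 166 and UDR 4 in 55. In 208 of the 857 every UDR library lay below every UD library. Over all genes tested this held for 262 genes (1.93%), while every UDR library lay above every UD library in 79 (0.582%), together 2.51% of genes. If group labels made no difference, the expected share without overlap, either way, would be 2 in 70, or 0.0286 as a fraction. The 2.51% found is not above it. That expectation is the same in each direction, where 1.93% lay below and 0.582% above. The 857 were chosen by a small p, which favours an absence of overlap. In 9 genes all UD libraries had 1 CPM or more and all UDR libraries less, and in 2 genes the reverse was found.

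**Figure D3:**
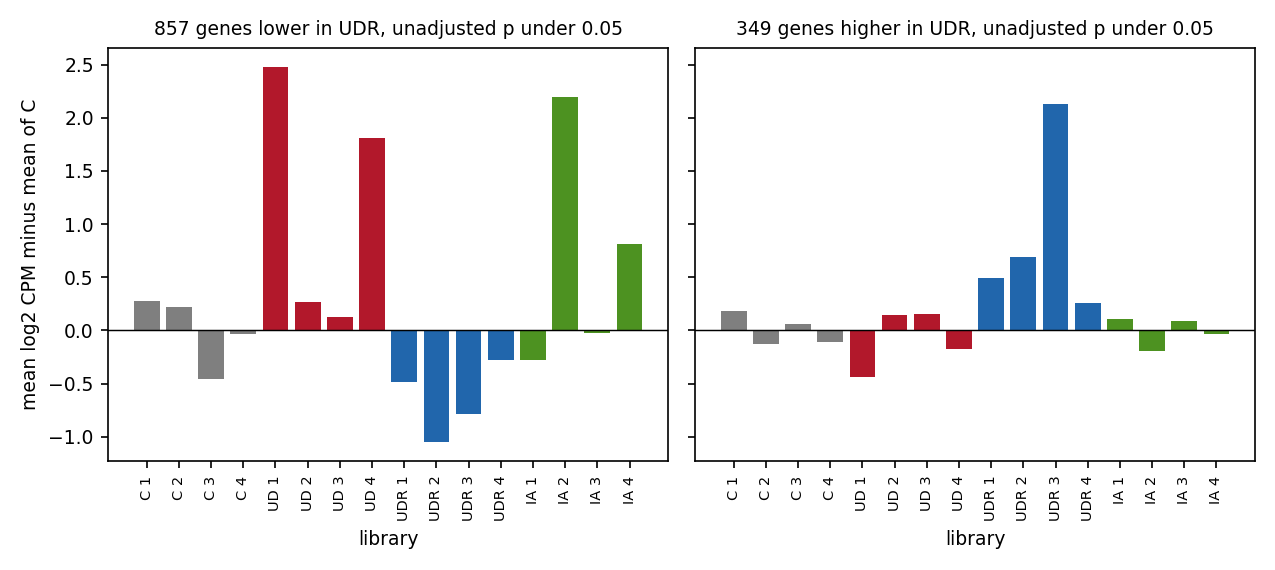
Bars give the mean log2 CPM relative to the mean of C in each of the 16 libraries. The left panel holds the 857 genes lower in UDR and the right panel the 349 higher. These genes were chosen by the difference of UDR from UD, in a fit of all 16 libraries. UD 1 (2.48), UD 4 (1.81) and IA 2 (2.19) are the high libraries on the left, and UDR 3 (2.13) on the right.

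The number of lower genes moved with the libraries left out, and among single libraries most with UD 1. Without UD 1 the 857 lower genes became 332, and 325 of the original 857 were among them. Without UD 4 there were 546, without UD 2 there were 1062 and without UD 3 there were 1267. Without both UD 1 and UD 4 there were 34 lower and 43 higher genes, 0.567% of those tested. These counts did not lean toward lower genes. They are far below the 678.45 expected with no difference, with UD 2 and UD 3 as the only UD libraries. They are thus too few to show that a lean was absent. In that comparison 776 of the 857 were still fitted lower in UDR, with a median log2 fold change of -0.70 in place of -2.12, and 27 had an unadjusted p under 0.05. Leaving out single UDR libraries gave 624 to 961. Without UDR 2 and UDR 3 together there were 427 lower and 124 higher genes, and 0 were called. In lane 2 alone, where UD 3 and UD 4 stood against all 4 UDR libraries, 461 genes were lower and 81 higher, with 0 called by edgeR. There 842 of the 857 were fitted lower, with a median log2 fold change of -1.78, against 0.06 over all genes tested. The 857 were chosen on libraries that these comparisons reuse, which favours their direction in each of them.

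**Figure D4:**
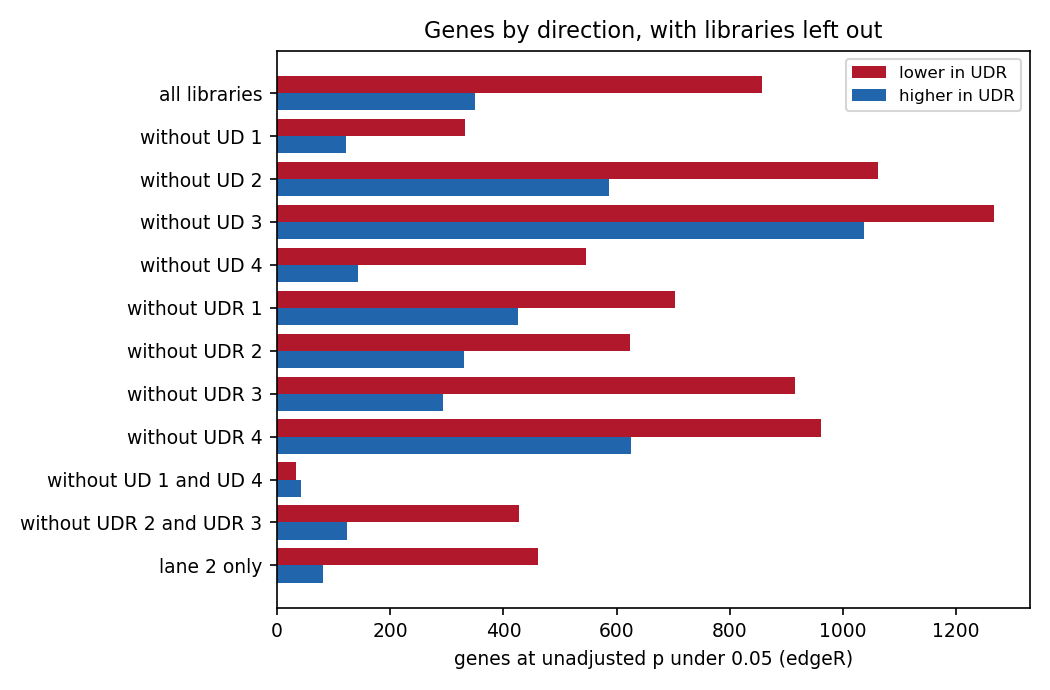
Bars give the number of genes with an unadjusted p under 0.05 by edgeR, lower (red) or higher (blue) in UDR, with all libraries, with the named libraries left out, and within lane 2. The bars for UD 1 and UD 4 left out together, at 34 and 43, are the shortest of each colour.

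The 349 genes higher in UDR were highest in UDR 3. Their mean log2 CPM relative to C was 2.13 in UDR 3, against 0.49 in UDR 1, 0.69 in UDR 2 and 0.26 in UDR 4. In the UD libraries it was -0.43, 0.14, 0.15 and -0.18 in UD 1 to UD 4. The control libraries lay from -0.13 to 0.18 and the IA libraries from -0.20 to 0.11, so each UDR library lay above all the others, UDR 4 by the least. UDR 3 was the highest UDR library in 226 of the 349 genes (64.8%), against 31.0% of all genes tested. UDR 4 was the lowest UDR library in 182. Every UDR library lay above every UD library in 32 of them, as their choice favours, and in 0.582% of all genes tested.

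Among the genes with the largest fitted differences on this side, most stood high in UDR 3 above all. Of the 137 genes fitted at least 4-fold higher in UDR, UDR 3 was the highest UDR library in 117, and in 94 it lay at least 4-fold above each of UDR 1, UDR 2 and UDR 4. Most of the 349 had small differences: their median log2 fold change was 0.84, and 0.55 without UDR 3. Without UDR 3, 310 of the 349 were still fitted higher and 110 had an unadjusted p under 0.05. Without UD 1 it was 349 and 111. The 349 were chosen on libraries that both comparisons reuse, which favours their direction. The number of higher genes itself was 294 without UDR 3, 122 without UD 1, 143 without UD 4, 587 without UD 2, 1038 without UD 3 and 625 without UDR 4. With only the 8 UD and UDR libraries in the fit it was 150.

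The levels in the controls were set beside those of UD and UDR. All C libraries were in lane 1, as were UD 1 and UD 2, and no UDR library was. Group and lane cannot be told apart in these positions. In 687 of the 857 lower genes (80.2%) the mean of C fell between the means of UD and UDR, against 40.4% of all genes tested. In 65 it lay beyond UD and in 105 beyond UDR. The median position of C, with UD at 0 and UDR at 1, was 0.61 for the lower genes and 0.21 for the higher ones. C was thus nearer to UDR in 539 of the 857 lower genes (62.9%) and in 74 of the 349 higher genes (21.2%), beside 46.1% of all genes tested. These genes were picked for a large distance between UD and UDR, which by itself places C between them more often, and no test was made of the positions. They rested on UD 1 and UD 4: with the mean of UD taken over UD 2 and UD 3 alone, C lay between UD and UDR in 389 of the 857 lower genes (45.4%) and nearer to UDR in 330 (38.5%), beside 24.6% and 48.6% of all genes tested. For the 349 higher genes C was then nearer to UDR in 44 (12.6%). Without UDR 3, C was nearer to UDR in 127 of the 349 (36.4%).

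The mean of IA was nearer to UDR in 120 of the 857 (14.002%), beside 32.1% of all genes tested, with IA 2 and IA 4 carrying the high IA levels. Without IA 2 it was nearer to UDR in 428 (49.9%), beside 46.7% of all genes tested. With UD 2 and UD 3 alone it was nearer to UDR in 86 (10.04%), beside 47.0% of all genes. For the 349 higher genes it was nearer to UDR in 47 (13.5%), in 90 without UDR 3 and in 88 without IA 2.

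The 4 genes given by ID are the 2 lower and the 2 higher genes with the smallest p. None passed edgeR's test, and what they encode is not given in the sources used here. ENSOARG00000012448 was at 72.1, 11.01, 25.8 and 56.2 CPM in UD 1 to UD 4, and at 6.28, 1.71, 1.08 and 5.15 CPM in UDR 1 to UDR 4. Every UDR library was below every UD library, and also below the controls, which held 8.05 to 10.2 CPM. UD 2 was close to the controls, while UD 1 and UD 4 were the highest of the 16 libraries. The log2 fold change of UDR against UD was -3.55 (SE 0.71, 95% interval -5.07 to -2.03), with an adjusted p of 0.4996 by edgeR. Against C it was 2.18 in UD (SE 0.67) and -1.37 in UDR (SE 0.66), 2 comparisons that share the control libraries, and edgeR's adjusted p was 0.909 and 0.797. Without UD 1 and UD 4 the log2 fold change of UDR against UD was -2.38, and in lane 2 alone it was -3.52.

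ENSOARG00000004007 was at 51.6, 18.2, 4.32 and 73.7 CPM in UD 1 to UD 4, and at 0.956, 1.08, 1.64 and 2.57 CPM in UDR 1 to UDR 4. Again the groups did not overlap, though UD 3 was level with C 2 and C 3, at 4.24 and 4.63 CPM. The controls ranged from 4.24 to 11.001 CPM, all above UDR. The IA libraries ran from 4.00 CPM in IA 1 to 67.3 CPM in IA 2. Its log2 fold change of UDR against UD was -4.57 (SE 0.97, 95% interval -6.63 to -2.50), with an adjusted p of 0.4996 by edgeR. It was -2.83 without UD 1 and UD 4. UDR held 14 to 41 counts of this gene per library, and UD 61 to 1231.

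ENSOARG00000007806 was at 7.26, 9.57, 12.9 and 10.3 CPM in UD 1 to UD 4, and at 25.1, 27.6, 120.2 and 16.04 CPM in UDR 1 to UDR 4. The UDR libraries lay above all 12 others, since C reached 8.05 CPM and IA 13.2 CPM. The log2 fold change of UDR against UD was 2.24 (SE 0.52, 95% interval 1.13 to 3.35), with an adjusted p of 0.4996 by edgeR. UDR 3 made up much of it: without that library the value was 1.19. UD itself was near C, with a log2 fold change of 0.68 (SE 0.50).

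ENSOARG00000011045 was at 16.6, 18.8, 31.9 and 18.2 CPM in UD 1 to UD 4, and at 59.4, 71.5, 387.1 and 21.6 CPM in UDR 1 to UDR 4. Here the groups overlapped, because UDR 4 lay below UD 3. The controls held 12.6 to 24.1 CPM and the IA libraries 16.4 to 39.8 CPM. The log2 fold change was 2.66 (SE 0.68, 95% interval 1.21 to 4.11), with an adjusted p of 0.4996 by edgeR. Without UDR 3 it was 1.25. All 4 genes were called by DESeq2, with adjusted p of 0.00026 and 0.00025 for the lower pair and 0.00858 and 0.0132 for the higher pair. Limma-voom with sample quality weights called them as well, at adjusted p of 0.0395 to 0.0478.

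**Figure D5:**
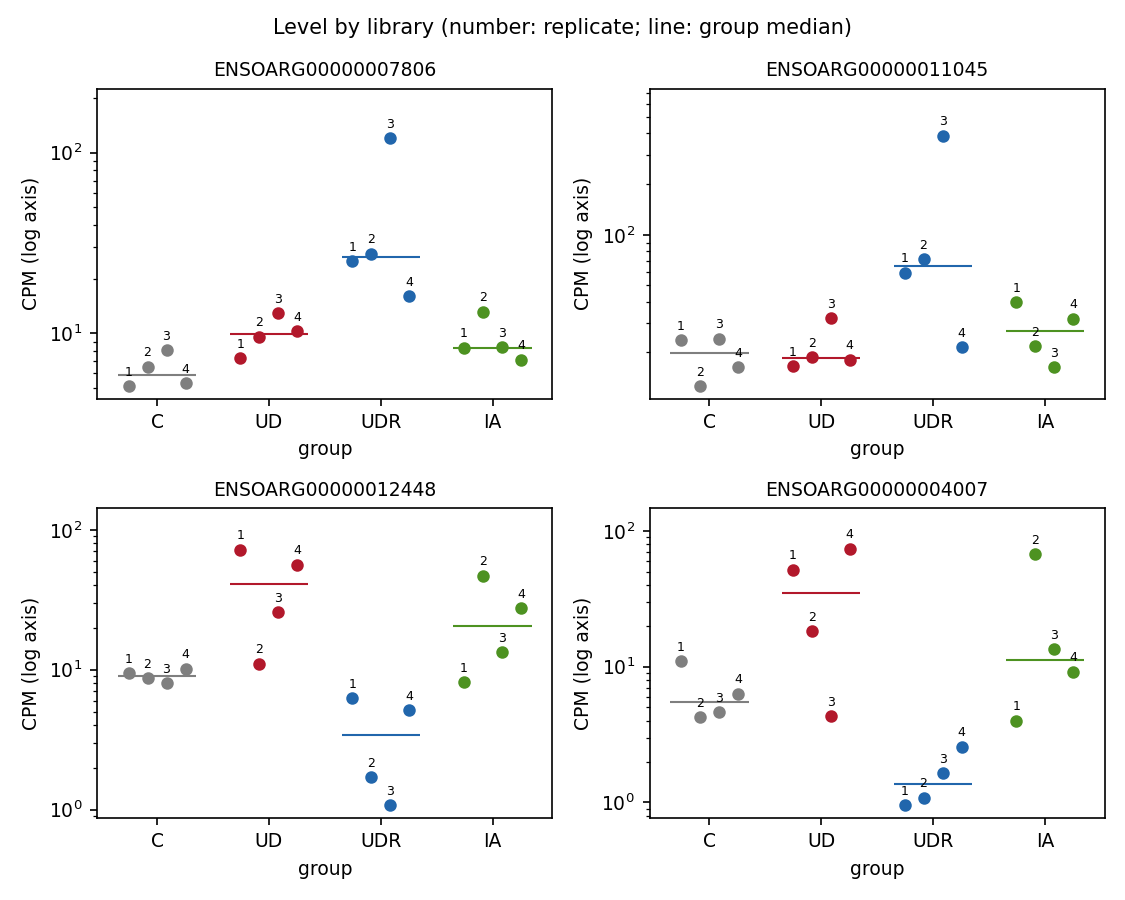
Points give the level of each of the 4 genes in CPM, on a log axis, in the 16 libraries by group, numbered by replicate, and lines are group medians. For ENSOARG00000012448 and ENSOARG00000004007 the UDR libraries, at 0.956 to 6.28 CPM, lie below all UD libraries, and for the other pair UDR 3, at 120.2 and 387.1 CPM, is the highest library.

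The lean toward lower levels differed with abundance. The genes were divided into 4 classes of equal size by mean log2 CPM over the 8 libraries. In the least abundant class, 372 of 3393 genes were lower in UDR with an unadjusted p under 0.05 (10.96%) and 76 higher. In the second class the numbers were 233 and 52, and in the third 142 and 103. In the most abundant class 110 were lower (3.24%) and 118 higher (3.48%). By size of the fitted difference the lean held in each class: 116 genes of the most abundant class were at least 2-fold lower and 73 at least 2-fold higher, against 807 and 270 in the least abundant. Without UD 1 and UD 4 the least abundant class held 18 lower and 26 higher genes at an unadjusted p under 0.05, and the most abundant 2 and 2. These counts are too small to show whether a lean remained. Without UD 1 alone the most abundant class held 51 lower and 30 higher. The median log2 fold change went from -0.21 in the least abundant class to 0.19 in the most abundant. The median SE was 0.72 in the first and 0.31 in the last, so only larger differences could reach a small p among scarce transcripts.

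The most abundant transcripts took a larger share of the RNA in UD than in UDR, though within the spread of the animals. The 10 most abundant genes of a library held 21.3%, 14.99%, 10.6% and 17.1% of its counts in UD 1 to UD 4. In UDR 1 to UDR 4 they held 11.7%, 11.1%, 9.45% and 7.41%. UD 3 lay among the UDR libraries, and the other UD libraries lay above them all. The means were 15.99% ± 4.45 in UD and 9.93% ± 1.93 in UDR (SD, n = 4; exact permutation test, two-sided, p = 0.0857, adjusted p = 0.171 over 2 measures). The difference, -6.06 percentage points, was -4.30 without UD 1 (exact permutation p = 0.114) and -7.87 without UD 3 (exact permutation p = 0.0286, the smallest possible). Without UD 1 and UD 4 together it was -2.86 (exact permutation p = 0.267, smallest possible 0.0667).

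Which genes were the most abundant differed from animal to animal. In all, 27 genes were among the 10 most abundant in at least 1 of the 8 libraries, and 0 were so in every library. By group mean, 7 of the 10 most abundant genes were shared by UD and UDR. The 10 most abundant in UD, a choice that favours lower values in UDR, had log2 fold changes from -3.33 to 0.96. Of these, 7 were fitted lower in UDR, beside 46.4% of all genes tested. Together these 10 held 19.8%, 14.7%, 9.45% and 16.6% of counts in UD 1 to UD 4, against 5.04% to 9.77% in UDR and 4.85% to 8.12% in C. IA 2 held 19.8%. The 10 most abundant in UDR, chosen the other way, held 10.2%, 13.7%, 8.34% and 8.96% in UD 1 to UD 4 and 6.64% to 11.1% in UDR. Among the 100 most abundant genes over both groups, all above 1052 CPM on average, 76 were fitted within 2-fold of each other in UD and UDR, beside 85.8% of all genes tested. Their median absolute log2 fold change was 0.48, against 0.35 over all genes tested. A choice by mean CPM favours genes made abundant by an outlying library. In the most abundant of the 4 classes by mean log2 CPM this median was 0.31. An unadjusted p under 0.05 by edgeR was found in 15 of the 100 that were lower in UDR and in 5 that were higher. Over all genes tested the shares were 6.32% lower and 2.57% higher.

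The number of genes detected did not differ beyond the spread between animals. A mean of 16811 ± 382.9 genes had counts in UD and 16885 ± 499.8 in UDR (SD, n = 4; exact permutation test, two-sided, p = 0.83, adjusted p = 0.83). The number depends on depth: with only the first runs of UDR 2 and UDR 3 the difference of UDR from UD was -396.8 genes in place of 74 (exact permutation p = 0.143).

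The number of calls by the other tools moved strongly with single animals. DESeq2's 144 calls became 5 without UD 1, 8 without UD 4 and 50 without UDR 2, but 309 without UD 2, 552 without UD 3 and 248 without UDR 4. The 1633 calls of limma-voom with sample quality weights became 0 without UD 1, UD 4, UDR 1 or UDR 2, and 5931 without UDR 4. That tool gives each library a weight by how well it fits its group: 5.07 for UD 4, 1.12 for UD 1, 0.37 for UD 2 and 0.34 for UD 3. The UDR libraries had weights of 0.25 (UDR 3) to 0.92 (UDR 2). Its estimate of the UD level was therefore set mostly by UD 4. Of its 1633 genes, 166 had groups that did not overlap, beside 341 of all 13569 genes tested (2.51%). An unadjusted p under 0.05 by edgeR was found in 628 of the 1633, beside 1206 of all 13569 genes tested (8.89%). The tools used the same counts, which favours shared genes. All 144 genes called by DESeq2 had an unadjusted p under 0.05 by edgeR, and 102 of them were among those of limma-voom with sample quality weights.

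For many genes a 2-fold difference would not have been detectable. In simulated counts, drawn independently for each gene, 200 of 13569 genes were changed. There edgeR called 4% of the 2-fold changes, 50% of the 4-fold and 82% of the 16-fold. The intervals given next are not adjusted for the number of genes. The common biological coefficient of variation was 0.57, and the median 95% interval of a log2 fold change reached 0.86 to either side, or 1.81-fold. For 4834 genes (35.6%) the interval stayed within 2-fold of no difference between drainage with and without replacement. For the others, an absence of calls does not show that the levels were alike.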

How the data were processed

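The authors deposited 1 table of raw read counts per gene, of 18 columns. Per the submitters' processing notes, FastQC 0.11.3, HTSeq 0.6.1 and DESeq2 were used. The sources used here do not give the aligner, genome build, annotation or strand setting, so overlapping, antisense and near-identical genes cannot be told apart. Of 25197 IDs, 4551 were at 0 in every library, and 0 matched the 35057 genes of the reference table.

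The 2 runs of UDR 2 and of UDR 3 were summed. Their counts differed by about sampling noise (chi-square per degree of freedom 1.03 and 1.06, over genes with 10 or more counts), and each library counted as 1 sample. The genes tested held 99.8% of counts. After TMM scaling, genes were tested in edgeR 4.0.16 (R 4.3.3) by the quasi-likelihood F test with robust estimation, all 16 libraries in 1 fit and group as the only term. Benjamini-Hochberg adjustment ran over all genes tested, at a threshold of 0.05, two-sided. CPM values use the scaled library sizes, and log2 CPM a prior count of 2. DESeq2 1.42.0 and, in limma 3.58.1, voom with sample quality weights were alternatives. Further alternatives were other scalings and filters, a replicate block, first runs only, lane 2 only and libraries left out. Leaving out UDR 2 with UDR 3, IA 2, and libraries in the other tools, the abundance classes and the positions of C and IA was added after seeing the data. The comparison, the filter and the lists were chosen with earlier results of these data known. Lists of gene symbols could not be applied. The genes given by ID are the 2 higher and the 2 lower with the smallest p. The tests were first tested on simulated data with 200 changed genes. False calls there numbered 4 with edgeR, 37 with DESeq2 and 6 with limma-voom with sample quality weights.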

Additional observations from a re-analysis of the deposited data

How the results depend on the processing

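edgeR called 0 genes under every scaling, filter, block and omission tried, with a smallest adjusted p of 0.215 (without UD 3). By other tools, 144 genes were called with DESeq2 and 1633 with limma-voom with sample quality weights. Genes with an unadjusted p under 0.05 numbered 349 higher and 857 lower in UDR. With no filter beyond 1 count 557 were higher, and with only the 8 UD and UDR libraries 150. In lane 2 alone there were 81 higher and 461 lower, without UD 1 and UD 4 there were 43 and 34, and without UDR 2 and UDR 3, a choice made after seeing the data, 124 and 427. Limma-voom with sample quality weights gave 2558 and 2729. With single libraries left out there were 122 to 1038 higher and 332 to 1267 lower. The cause of these shifts was not tested. The difference in genes with counts, 74, was -396.8 with first runs only and -130.4 to 232.9 with single libraries left out. That in the share of the 10 most abundant genes was -7.87 to -4.30 percentage points with single libraries left out. The share of variance between UD and UDR stayed short of its threshold in all alternatives, at 12.5% to 26.2% with single libraries left out. In lane 2 alone, without UD 1 and UD 4, and without UDR 2 and UDR 3 it could not have passed. The smallest possible exact permutation p was 0.0667 in each of these. The 4 genes given by ID kept their direction in all 80 alternatives, and passed the threshold in 8, those of DESeq2 and limma-voom with sample quality weights. They were chosen by their p on libraries that the alternatives reuse, which favours that direction. Their sizes moved: without UDR 2 and UDR 3 the log2 fold change of ENSOARG00000011045 was 0.92 in place of 2.66. Same-numbered UD and UDR libraries came from different animals. The correlations of their deviations from group means were -0.19, 0.64, -0.45 and 0.41 for numbers 1 to 4. UD 2 and UD 4 correlated best with the UDR library of their own number, and UD 1 and UD 3 did not. With 4 such values, whether the numbers mark a shared batch cannot be told. With the replicate block edgeR called 0 genes, and 316 were higher and 702 lower at an unadjusted p under 0.05. No replicate block was used for the share of variance or the library measures.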
